A study of Mus musculus with 6 samples.

Results

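M cells are rare epithelial cells that carry particles and microbes from the gut lumen to the lymphoid follicles beneath them, and the follicle-associated epithelium is the sheet of epithelium that holds them. They form when RANKL, made by stromal cells under the follicle, binds its receptor RANK on crypt cells and switches on NF-kB and then the transcription factors SPIB and SOX8. The same epithelium secretes CCL20 and CCL9, which draw B cells and dendritic cells to the follicle. In the colon such epithelium lies over colonic patches and scattered follicles. The genes described here are 8 genes of M cells and follicle-associated epithelium, Spib, Gp2, Ccl20, Ccl9, Tnfaip2, Tnfrsf11a, Sox8 and Marcksl1. They were found as every probe set whose array annotation gives exactly 1 gene symbol that is one of these. This gave 15 probe sets out of 34958 with 1 symbol, and 8 genes out of 18194. No probe set with several symbols named any of them, and no filter on low values was applied, so all 15 are included. The 8 genes were chosen by measured values of these arrays, namely Spib and B cell genes that read high on wild type 6, so the levels and differences below are a description and not independent evidence of any direction.

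RNA was measured on Affymetrix whole-genome mouse arrays, where a probe set is a group of short probes for 1 transcript, in colon epithelium of 12-week-old mice on a mixed 129SvEv/C57BL/6/DBA/2 background. The knockout mice were vil-Cre-Bcl9-/-/Bcl9l-/-, in which the villin promoter drives Cre in the intestinal epithelium and both beta-catenin co-activators BCL9 and BCL9L are targeted; the wild-type mice are labelled only as such, and vil-Cre is named for the knockouts alone, so an effect of Cre cannot be told apart from the loss of the genes. There were 3 knockout arrays (1, 2 and 3, from pools of 3, 2 and 2 mice) and 3 wild-type arrays (4, 5 and 6, from pools of 3 mice each). The epithelium was released with EDTA and not sorted, so lymphoid or other tissue that came off with it is measured too.

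The labelled tissue matched its markers on every array. The mean of 14 colon epithelium markers, among them Krt19, Krt8, Epcam and Lgals4, ran from 12.49 to 12.54 over the knockout arrays and from 12.46 to 12.55 over the wild types (log2 RMA values). Krt19, Krt8, Epcam and Lgals4 differed between genotypes by 0.04, -0.01, -0.02 and 0.03. The targeted genes did not separate the groups, with differences of 0.11 (SE 0.20) for Bcl9 and 0.22 (SE 0.15) for Bcl9l by their brightest probe sets. The 2 probe sets of Bcl9 differed by -0.04 to 0.11 and the 3 of Bcl9l by -0.20 to 0.22, so neither gene has 1 direction. The sources used here do not say whether these probes lie in the deleted parts, so they check nothing. Single arrays stood apart in 2 ways. B cell markers were high on wild type 6, where the mean of 14 markers was 7.90 against 4.51 to 4.93 on the other 5 arrays. Genes of the pancreatic acinar cell, a list added after the values were seen, were high on wild type 5, where the mean of 20 genes was 9.54 against 6.42 to 7.60 elsewhere.

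Promoters are shown for 3 members whose array profiles are set against each other below, namely Spib, Tnfaip2 and Ccl20. The brightest probe set of Tnfaip2 had the profile nearest to that of Spib among all genes. Ccl20 was lowest on wild type 6, where Spib and that Tnfaip2 probe set were highest. Each sequence is the 250 bases before the RefSeq start in GRCm38.p6, printed 5′ to 3′ on the gene's strand, Spib from chr7:44532072-44532321 (minus strand), Tnfaip2 from chr12:111442411-111442660 (plus strand) and Ccl20 from chr1:83116516-83116765 (plus strand). Capitals mark matches, on either strand, to an NF-kB motif (GGGA, any 4 bases, then CC), the PU box bound by SPIB (GAGGAA) or the TCF/LEF motif through which beta-catenin acts (CTTTGAT).
Spib: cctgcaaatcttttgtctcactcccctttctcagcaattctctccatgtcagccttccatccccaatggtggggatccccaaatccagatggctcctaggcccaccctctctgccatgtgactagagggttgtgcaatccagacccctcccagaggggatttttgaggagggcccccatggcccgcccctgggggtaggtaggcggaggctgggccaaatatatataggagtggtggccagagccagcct
Tnfaip2: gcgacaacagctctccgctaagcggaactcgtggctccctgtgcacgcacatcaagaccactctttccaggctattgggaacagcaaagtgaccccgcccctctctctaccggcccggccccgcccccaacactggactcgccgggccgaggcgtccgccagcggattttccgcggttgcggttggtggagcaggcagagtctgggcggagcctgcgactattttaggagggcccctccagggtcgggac
Ccl20: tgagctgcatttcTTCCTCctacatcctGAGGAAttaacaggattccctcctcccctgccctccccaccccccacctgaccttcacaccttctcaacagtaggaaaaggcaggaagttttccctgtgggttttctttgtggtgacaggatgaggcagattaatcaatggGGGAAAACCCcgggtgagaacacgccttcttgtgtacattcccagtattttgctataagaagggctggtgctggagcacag

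All 8 members had a promoter in the RefSeq table. Ccl20 held the 1 NF-kB match among them, beginning at -81 from the start, and 2 PU box matches, beginning at -237 and -222. Marcksl1 held 1 PU box match, at -62, and the promoters of Spib, Tnfaip2, Gp2, Ccl9, Tnfrsf11a and Sox8 held no match to any of the 3 motifs. The TCF/LEF letters were in 0 of the 8. Over all 32851 promoters of this length in the table, 17.6% held the NF-kB motif, 23.3% the PU box and 3.21% the TCF/LEF motif, and the motifs do not overlap in the sequences shown. A match is only a description of the letters.

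Across all probe sets limma called 0 of 34958 at an adjusted p under 0.05, that is 0% in either direction, and 1607 had an unadjusted p under 0.05, or 4.60%. Of the 15 member probe sets, 0 were called (adjusted p from 0.975 to 0.998) and 0 had an unadjusted p under 0.05; the lowest were 0.052 for Spib, 0.0526 for Tnfaip2 and 0.0537 for Tnfrsf11a. With 3 arrays per group, the 95% interval of a member extended by a median of 0.54 either side of its difference. Of the member probe sets 5 lay above 0 and 10 below, with a median of -0.11 (knockout minus wild type, log2), beside 18343 above, 16615 below and a median of 0.01 over all probe sets. Knockout and wild-type values overlapped in all 15, where 10.2% of all probe sets had groups that did not overlap, 4.65% with the knockouts lower. Of the member probe sets 7 of 15 spanned 1 or more on the log2 scale over the 6 arrays, beside 15.2% of all probe sets. By the brightest probe set of each gene, 6 of the 8 members had such spans, beside 13.3% of all genes. These spans were not particular to the members: 6 of 15 further M cell genes, 13 of 14 B cell markers and 7 of 9 T cell markers had them. Of the RANK and NF-kB genes 5 of 18 had them, and of the epithelium and glia markers 0 of 14 and 0 of 5. Members were also picked with array-specific values in view, so wide spans are partly built in. The highest array varied between the member probe sets. Wild type 6 was highest in 3 of 15 (15.1% of all probe sets), wild type 5 in 2 (19.1%) and knockout 3 in 4 (15.4%), 3 of them of Marcksl1. Knockout 2 was lowest in 7 (15.6% of all probe sets). By the brightest probe set of each gene, knockout 2 was lowest in 6 of the 8 members, beside 3151 of 18194 genes.

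**Figure D1:**
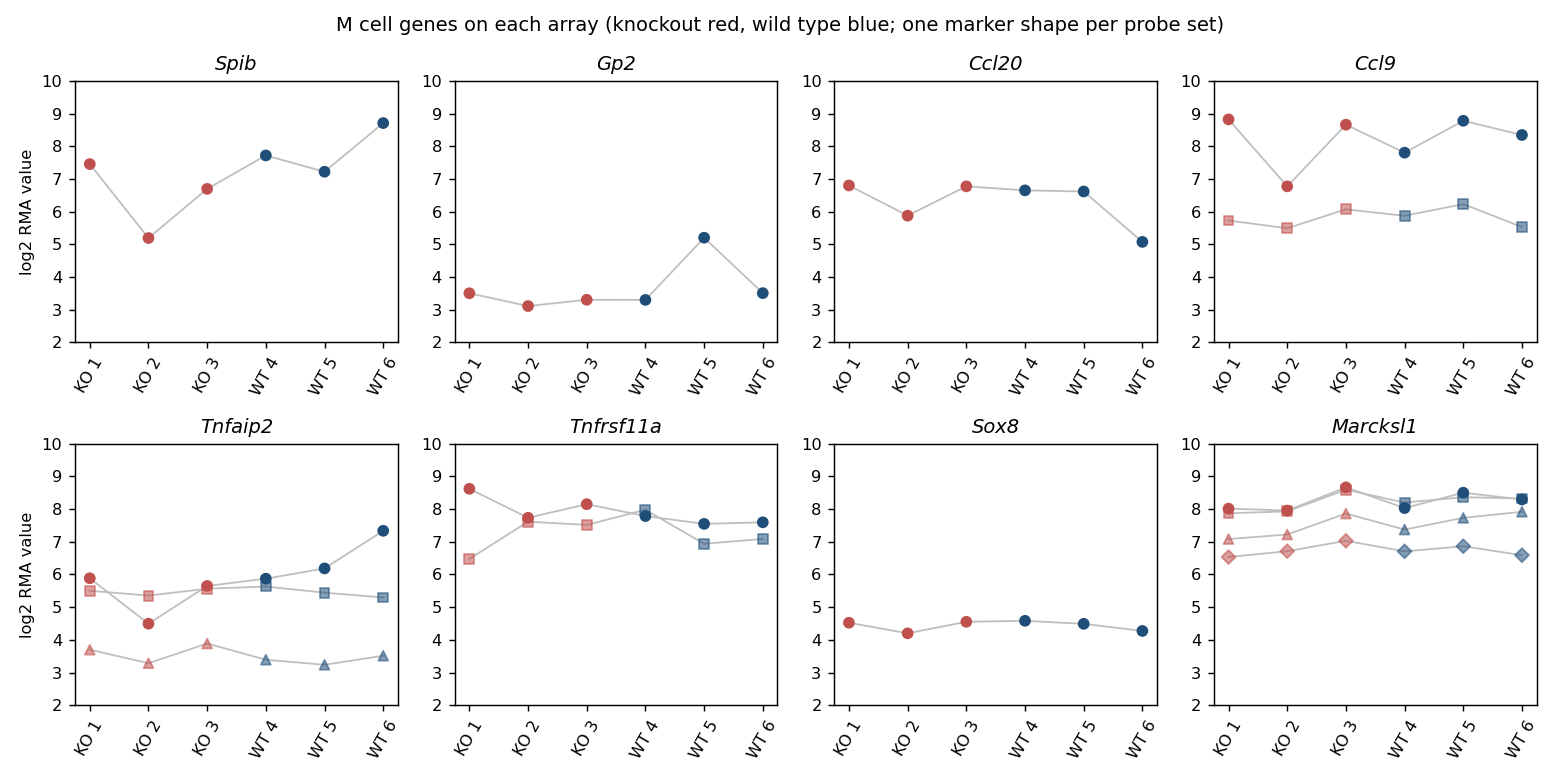
The log2 RMA value (vertical axis) of each member on each of the 6 arrays (horizontal axis), 1 panel per gene, with a marker shape for each probe set, knockouts in red and wild type in blue; lines only join the points of a probe set. Spib is highest on wild type 6 at 8.71, Gp2 on wild type 5 at 5.21, and Ccl20 is lowest on wild type 6 at 5.08.

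Spib encodes an ETS-family transcription factor that M cells need to mature and that B cells and plasmacytoid dendritic cells also express. Its single probe set read 7.46, 5.20 and 6.70 in knockouts 1, 2 and 3 and 7.72, 7.22 and 8.71 in wild types 4, 5 and 6. Wild type 6 was highest, 0.99 above wild type 4, and knockout 2 lowest, 1.50 below knockout 3, while knockout 1 lay above wild type 5, so the groups overlapped. The knockouts averaged 6.45 ± 1.15 against 7.89 ± 0.76 for wild type (SD, both n = 3), and the genotype difference was -1.44 with an SE of 0.61 (95% interval -2.89 to 0.02, limma adjusted p = 0.975). It was -1.94 without knockout 1, -0.81 without knockout 2, -1.02 without wild type 6, -0.43 with the number of mice in the pool as a covariate and -0.39 without both knockout 2 and wild type 6. Only knockouts 2 and 3 came from smaller pools. The covariate fit, here and below, therefore sets knockout 1 alone against the wild types and cannot correct for pool size. Over the 5 arrays other than wild type 6 Spib spanned 2.53. Each taken relative to its 6-array mean, the 14 B cell markers had a median level of -0.73 to -0.35 there. On wild type 6 that median was 2.81. A median of 14 genes is smoother than 1 gene, so the Spib span and this median are unlike measures. Over the same 5 arrays Blnk read 8.91 to 9.60 and Cd79a 4.71 to 6.06. Cd37 read 4.76 to 6.38 and Pou2af1 4.12 to 5.74, these 4 being the brightest markers.

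Tnfaip2 encodes a protein induced by tumour necrosis factor that M cells express, as do myeloid and endothelial cells. Its brightest probe set, 1438855_x_at, read 5.88, 4.49 and 5.65 in the knockouts and 5.87, 6.19 and 7.34 in wild types 4, 5 and 6. As with Spib, wild type 6 was highest, by 1.15, and knockout 2 lowest, by 1.15, and knockout 1 lay above wild type 4. The difference was -1.12 (SE 0.48, limma adjusted p = 0.975), -0.69 without wild type 6, -0.58 with the pool-size covariate and -0.26 without knockout 2 and wild type 6. The other probe sets read flat, 1457918_at between 5.30 and 5.63 and 1416273_at between 3.24 and 3.89, and their differences were 0.02 (SE 0.13) and 0.24 (SE 0.18). The brightest one thus disagreed with both others, but 1416273_at lay at percentile 21.2 of the array and is not shown to be above background. The suffix _x_at of the brightest probe set means that some of its probes can match other transcripts.

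Among all 18194 genes the profile nearest to that of Spib was Tnfaip2, with a root mean square difference of 0.38 between the centred log2 profiles over 6 arrays, followed by Fxyd5 at 0.51 and Fmo1 at 0.52. The genes nearest to Tnfaip2 were Cd83, an activation marker of B cells and dendritic cells, at 0.22, the collagen gene Col1a2 at 0.28 and Fxyd5 at 0.29, with Spib ranked 14. Cd83 and Col1a2 were both highest on wild type 6, at 7.63 and 7.05, and lowest on knockout 2, at 5.15 and 5.01. All genes are read on the same 6 arrays and so share the pool and library effects of each array, and likeness over 6 arrays is a description.

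Gp2 encodes glycoprotein 2, the receptor on mature M cells for fimbriated bacteria, and is also a major protein of pancreatic zymogen granule membranes. Its probe set read 3.51, 3.11 and 3.31 in the knockouts and 3.30, 5.21 and 3.51 in wild types 4, 5 and 6. Wild type 5 alone stood out, 1.70 above the next array, and the other 5 arrays lay between 3.11 and 3.51. The array high in B cell markers, wild type 6, read 3.51, as did knockout 1. Knockouts averaged 3.31 ± 0.20 and wild types 4.01 ± 1.04 (SD, both n = 3). The genotype difference was -0.70 (SE 0.48, limma adjusted p = 0.975), and -0.10 without wild type 5. The 6-array mean lay at the 23.8th percentile of the array, and no detection call was used, so the readings other than that of wild type 5 are not shown to be above background.

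Most of the pancreatic acinar genes were highest on the same array as Gp2; those named here were chosen after their values were seen. Of 25 listed 20 were measured, and 16 of these were highest on wild type 5; the others, Cela1, Rbpjl, Spink1 and Sycn, were not, and Spink1, Sycn and Cela1 read above 10 on every array. Wild type 5 was the highest array for 21.1% of all genes. Clps, the colipase gene, read 11.32 on wild type 5 and 8.22 to 10.32 elsewhere. Bhlha15, an acinar transcription factor gene, differed by -0.79 (SE 0.24, limma unadjusted p = 0.0144, adjusted p = 0.975), while its other probe set differed by -0.11. Bhlha15 was the 1 gene of 20 with an unadjusted p under 0.05, beside 4.30% of all genes. Bhlha15 and Spink1 were without overlap, which made 2 of 20 beside 10.3% of all genes. The elastase gene Cela3b read 13.07 on wild type 5, 9.63 on wild type 6 and 4.37 to 8.10 on the other 4 arrays. The carboxypeptidase gene Cpa1 read 9.90 on wild type 5 and 4.85 to 7.41 elsewhere, and the trypsinogen gene Prss2 10.03 and 4.28 to 7.27. The acinar transcription factor Ptf1a read 4.04 on wild type 5 and 3.01 to 3.37 elsewhere. Ptf1a lay at percentile 19.3 of the array and is not shown to be above background. The median centred level of the list was 2.68 on wild type 5, 0.29 on wild type 6 and -0.84 to -0.44 on the other 4 arrays. The genes nearest to Gp2 in profile were Crisp3 at a root mean square difference of 0.09, D030055H07Rik at 0.16 and Tmed11 at 0.17, and all of them read highest on wild type 5. Their 6-array means of 3.06, 2.88 and 3.12 lay below the 3.66 of Gp2. Their readings on the other 5 arrays are not shown to be above background. The part of these transcripts in the Gp2 reading was not tested, and fewer cells of a type and less RNA per cell cannot be told apart in bulk samples such as these.

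**Figure D2:**
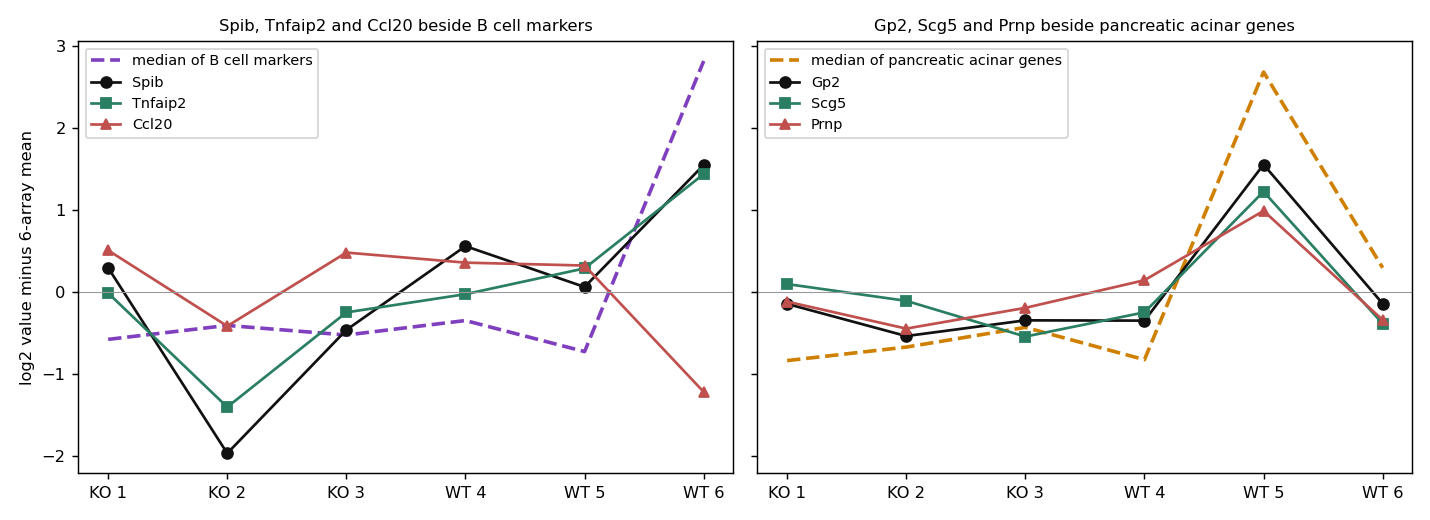
Log2 value minus the 6-array mean (vertical axis) on each array (horizontal axis) for Spib, Tnfaip2 and Ccl20 beside the median of 14 B cell markers (left) and for Gp2, Scg5 and Prnp beside the median of 20 pancreatic acinar genes (right). Gp2, Scg5 and Prnp peak on wild type 5 with the acinar median of 2.68, and Ccl20 is lowest on wild type 6 where the B cell median is 2.81. Scg5 and Prnp are shown out of 15 further M cell genes, of which only 6 were highest on wild type 5.

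Ccl20 encodes the chemokine of the follicle-associated epithelium that attracts cells bearing CCR6. It read 6.80, 5.88 and 6.78 in the knockouts and 6.65, 6.62 and 5.08 in wild types 4, 5 and 6. Wild type 6 was the lowest array, 0.80 below knockout 2, and the other 4 arrays lay between 6.62 and 6.80. Knockouts averaged 6.49 ± 0.53 and wild types 6.12 ± 0.90 (SD, both n = 3). The genotype difference was 0.37 (SE 0.47, limma adjusted p = 0.983), and it turned to -0.15 without wild type 6. Its receptor gene Ccr6, which B cells express, ran the other way on that array, at 7.58 on wild type 6 and 5.01 to 5.46 on the others. The genes nearest to Ccl20 in profile were Ttc30a1 (0.18), Pacrgl (0.19) and Sdhaf3 (0.21), given as root mean square differences of log2 values.

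Ccl9 encodes a chemokine that attracts myeloid dendritic cells through CCR1 and is made by myeloid cells too. Its brighter probe set, 1417936_at, read 8.83, 6.78 and 8.67 in the knockouts and 7.81, 8.78 and 8.35 in wild types 4, 5 and 6. Knockout 2 was lowest, 1.03 below wild type 4, and wild type 6 lay inside the range of the others. The difference was -0.22 (SE 0.55, limma adjusted p = 0.990) and turned to 0.43 without knockout 2, to 0.01 without wild type 5 and to 0.51 with the pool-size covariate. The dimmer probe set, 1448898_at, read 5.49 to 6.07 over the knockouts and 5.53 to 6.23 over the wild types, with knockout 2 again lowest and a difference of -0.11 (SE 0.22). Macrophage and myeloid markers did not share this low array: their median centred level was 0.00 on knockout 2, -0.46 to -0.15 on the other arrays but wild type 6, and 0.82 on wild type 6. The nearest profiles were those of Tsacc, the galectin gene Lgals2 and Tsga10, at root mean square differences of 0.23, 0.30 and 0.31.

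Tnfrsf11a encodes RANK, the receptor that starts M cell formation. Its probe sets ran against each other. The brighter, 1430259_at, read 8.62, 7.73 and 8.15 in the knockouts and 7.79, 7.55 and 7.60 in wild type, a difference of 0.53 (SE 0.23, 95% interval -0.01 to 1.06, limma adjusted p = 0.975), where only knockout 2 and wild type 4 kept the groups from separating. The other, 1419214_at, read 6.48, 7.62 and 7.52 in the knockouts and 7.98, 6.94 and 7.09 in wild type, a difference of -0.13 (SE 0.39) that turned to 0.23 without knockout 1. With the pool-size covariate the differences were 0.98 for the brighter and -0.86 for the other probe set, and the latter was -0.78 without wild types 5 and 6. Knockout 1 was thus the highest array for one probe set and the lowest for the other, so a direction for the gene is not given. The genes nearest to the brighter probe set were Ggct and Mus81, both at 0.06, and Glmp at 0.12, as root mean square differences of log2 values.

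Sox8 encodes the transcription factor that acts with SPIB to switch on Gp2 in M cells, and is also expressed by enteric glia. It read 4.20 to 4.55 over the knockouts and 4.27 to 4.58 over the wild types, a span of 0.38 over all arrays, with a difference of -0.02 (SE 0.15) whose sign turned under cyclic loess scaling and without knockout 2. Marcksl1 encodes a membrane-linked actin regulator that is higher in M cells than in other epithelium and is expressed in many other cells. Its 4 probe sets had means of 8.24, 8.21, 7.53 and 6.74 and spans of 0.50 to 0.83. Knockout 3 was the highest array in 3 of the 4 probe sets, and the differences ran from -0.29 to 0.04 (SE 0.16 to 0.24). The groups overlapped for both genes.

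**Figure D3:**
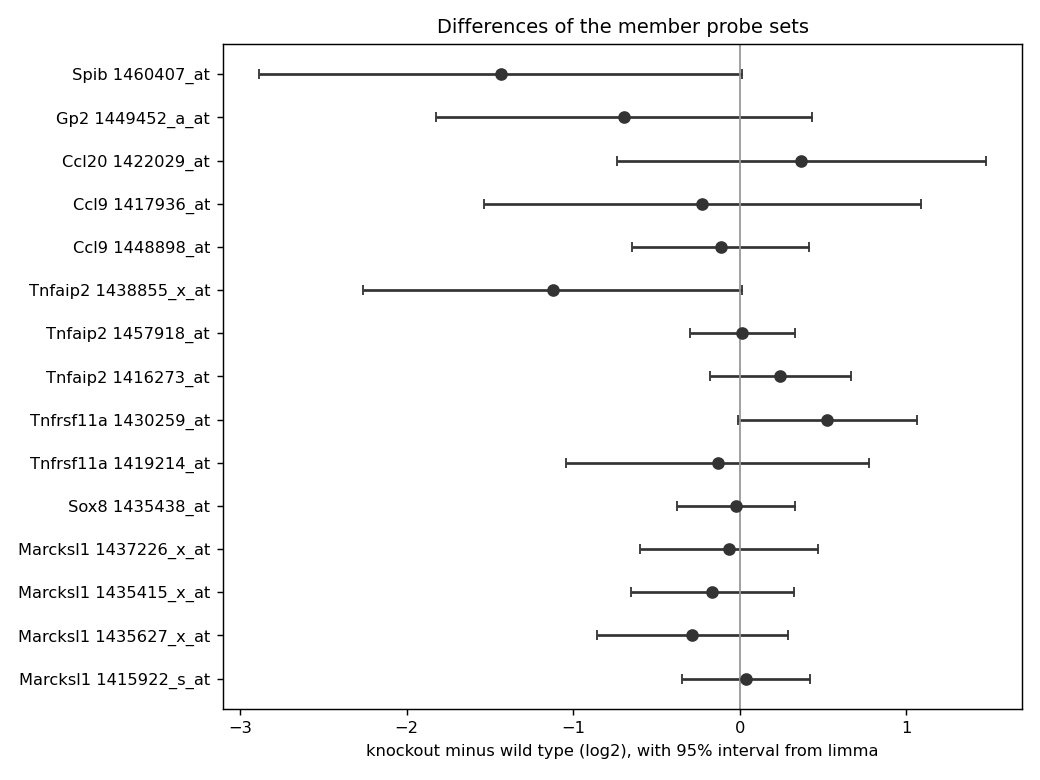
Log2 difference, knockout minus wild type (horizontal axis) for each of the 15 member probe sets (vertical axis), with points for limma's estimate and bars for its 95% interval from 3 arrays per group. Every interval includes 0, and those of Spib (-1.44) and of the brightest Tnfaip2 probe set (-1.12) lie farthest below it.

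Further genes of M cells and follicle-associated epithelium, taken from a list of 16 of which 15 were measured, were read by their brightest probe set. Of these 0 were called, 5 lay above 0 and 10 below, and the median difference was -0.17, beside 0.01 over all 18194 genes. Of the 15, 1 had an unadjusted p under 0.05, beside 4.30% of all genes, and 2 had groups that did not overlap, beside 10.3%. Clu, which encodes the secreted chaperone clusterin, read 7.03, 7.07 and 7.16 in the knockouts and 8.26, 7.63 and 8.21 in wild types 4, 5 and 6. All knockouts lay below all wild types, with a difference of -0.95 (SE 0.18, limma unadjusted p = 0.00142, adjusted p = 0.975). All 4 Clu probe sets were lower in the knockouts, by -1.16 to -0.89. Ccl6, a chemokine gene close to Ccl9, was the other gene without overlap, at 0.32 (SE 0.14, limma adjusted p = 0.975). Its other probe set was also higher in the knockouts, by 0.54 (limma unadjusted p = 0.00643).

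Of the 15, 6 read highest on wild type 5, the array of the Gp2 peak, beside 21.1% of all genes. Scg5, which encodes the neuroendocrine chaperone 7B2, read 5.94 there and 4.18 to 4.82 elsewhere, and Prnp, the prion protein gene, 8.97 and 7.53 to 8.12. The genotype difference of this Prnp probe set was -0.52 and that of its other probe set 0.06. Siglecf, a sialic acid-binding lectin gene, Cxcl16, a chemokine gene, Msln, the mesothelin gene, and Umod, the uromodulin gene, were highest there by less, Cxcl16 by 0.03 and Umod by 0.05. Umod lay at percentile 2.61 of the array and is not shown to be above background. Rac2 and Aif1, which leukocytes express strongly, were instead highest on wild type 6, Rac2 at 7.75 against 5.40 to 5.86 and Aif1 at 6.87 against 4.93 to 6.22. The differences of Prnp, Scg5, Rac2, Aif1, Siglecf, Cxcl16 and Msln lay between -0.83 and -0.17, and those of Anxa5, Pglyrp1, Cyba, Umod, Serpinb6a and Psg18 between -0.08 and 0.35. Without wild type 5 the median of the list was 0.01.

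Of 21 listed genes of RANK and NF-kB signalling 18 were measured, 0 were called, 11 lay above 0 and 7 below, and the median was 0.04. Tnfsf11, the gene of RANKL, read 3.14 to 3.40 over the knockouts and 3.03 to 3.73 over the wild types. Its mean lay at the 17.8th percentile of all probe sets. Tnfrsf11b, which encodes the RANKL decoy osteoprotegerin, read 5.15 to 5.64 and 4.72 to 5.14, without overlap, a difference of 0.41 (SE 0.18, limma adjusted p = 0.975), while its other probe set differed by -0.05. Rela, which encodes an NF-kB subunit, differed by 0.47 (SE 0.12, limma unadjusted p = 0.00642, adjusted p = 0.975). By brightest probe sets it was the 1 gene of the 18 with an unadjusted p under 0.05, beside 4.30% of all genes. The 5 probe sets of Traf6 differed by -0.10 to 0.52, with a smallest limma unadjusted p of 0.0040. The 4 brightest, Nfkbia, an inhibitor of NF-kB, Ltbr, the lymphotoxin beta receptor gene, and the kinase subunit genes Ikbkb and Ikbkg, differed by 0.05 to 0.35. Nfkbia, like Tnfrsf11b and Rela, was without overlap, which made 3 of 18 beside 10.3% of all genes. Relb and Nfkb2, which form the NF-kB dimer downstream of RANK, each differed by -0.02. Tnfsf11, Tnfrsf11b, Traf6, Relb and Nfkb2 were chosen after their values were seen.

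The chemokines and receptors of the follicle itself were highest on wild type 6 in 6 of 8 measured genes of 10 listed, with a median difference of -0.61 (-0.14 without wild type 6) and 0 calls. Cxcl13, which draws B cells into follicles, read 7.36, 7.68 and 6.46 in the knockouts and 8.02, 8.29 and 8.62 in wild type, a difference of -1.14 (SE 0.32, limma unadjusted p = 0.00983, adjusted p = 0.975), and was highest on wild type 6. Its receptor gene Cxcr5 read 3.49 to 3.59 over the knockouts and 3.87 to 5.46 over the wild types, a difference of -1.27 (SE 0.38, limma unadjusted p = 0.0126, adjusted p = 0.975). Both were without overlap and were the 2 of 8 genes with an unadjusted p under 0.05, beside 4.30% of all genes. Ccr1, the receptor gene for CCL9 and chosen after its values were seen, was also without overlap at 2.69 to 3.17 and 3.27 to 3.48, which made 3 of 8 beside 10.3% of all genes. It lay at the 15.5th percentile and is not shown to be above background, and its other probe set differed by -0.06. Ccr6, Icam1 and Vcam1 differed by -0.85, 0.23 and -0.07.

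Of 14 measured B cell markers 13 were highest there, and Cd79a read 8.71, Pou2af1 10.35 and Cd37 7.95, while Blnk, which read 8.91 to 9.60 over all arrays, was not. Wild type 6 was also highest in 7 of 9 T cell markers, 9 of 14 macrophage and myeloid markers, 5 of 7 plasmacytoid dendritic cell markers and 4 of 9 plasma cell markers, beside 12.8% of all genes, and in 0 of 5 enteric glia markers and 0 of 14 epithelium markers. Itgae (-0.74, SE 0.17), Zap70 (-0.31, SE 0.12) and Cd14 (0.48, SE 0.14) had unadjusted limma p below 0.05 in these lists, and 0 genes were called. These were 2 of 9 T cell markers and 1 of 14 myeloid markers, beside 4.30% of all genes. The B cell, plasma cell, plasmacytoid dendritic cell, glia and epithelium lists had 0. Other probe sets did not share the differences of Itgae and Zap70, at -0.0047 for Itgae and -0.06 for 1 of the further Zap70 probe sets. The other bright T cell markers Cd8a, Cd2 and Cd3g differed by -0.66, -0.33 and -0.49, and the myeloid markers Lyz2, Tyrobp and C1qb by -1.01, -0.40 and 0.32. The bright plasma cell markers Sdc1, Xbp1, Jchain and Prdm1 differed by -0.21, 0.14, -0.36 and 0.34. Those of plasmacytoid dendritic cells, Tcf4, Bst2, Cox6a2 and Siglech, differed by -0.04, -0.54, -0.21 and -0.15, and those of glia, Erbb3, Sox10, S100b and Gfap, by 0.02, -0.08, 0.22 and -0.15. The mean level of the B cell markers was 4.53 to 4.67 over the knockouts and 4.51 to 7.90 over the wild types, that of the T cell markers 5.13 to 5.56 and 5.36 to 6.57, and that of the myeloid markers 5.74 to 5.85 and 5.43 to 6.65. The median differences of these 3 lists were -1.22, -0.49 and -0.10, and -0.08, 0.01 and 0.11 without wild type 6. Their part in the Spib and Tnfaip2 readings on wild type 6 was not tested. Gp2, Ccl20, Sox8, Ccl9 and Tnfrsf11a did not read highest on that array in any probe set.

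**Figure D4:**
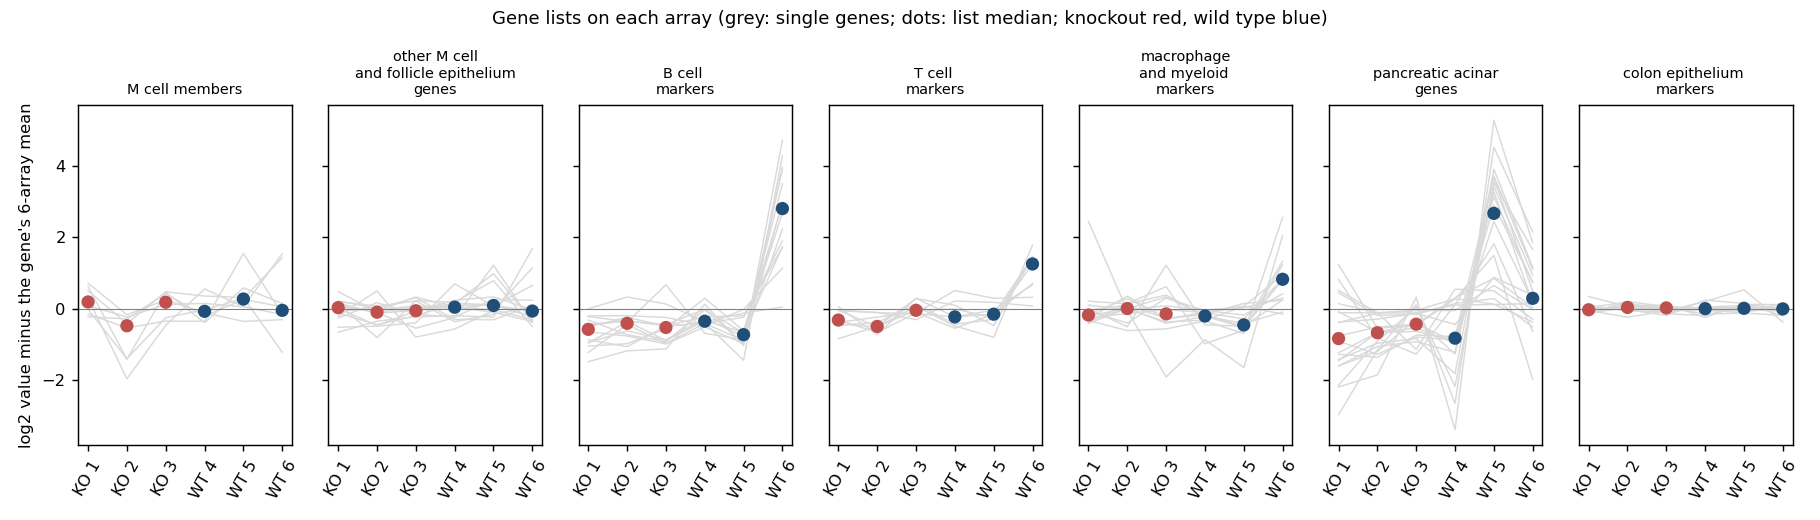
Log2 value minus each gene's 6-array mean (vertical axis) on each array (horizontal axis) for 7 gene lists, with grey lines for single genes and dots for the list median. The B cell median is 2.81 on wild type 6, the acinar median is 2.68 on wild type 5, the median of the 8 members runs from -0.48 on knockout 2 to 0.27 on wild type 5, and the epithelium median stays between -0.03 and 0.03.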

How the data were processed

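The deposited values are log2 expression values that the authors made with RMA, per the submitters' processing notes, with its version and settings not given in the sources used here. RMA as a method corrects background, quantile-normalizes arrays and summarises probes per probe set. Values of 1.78 to 14.4 set the scale as log2. Epithelium was released in 3 mM EDTA and 30 ng of pooled RNA was amplified, per the labels' protocols. Detection calls and scan dates were not analysed here, and array number, not depth, limits the precision. Array medians were 5.44 to 5.58.

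Symbols came from the platform annotation (34958 of 45101 probe sets had 1 symbol, 932 several, 9211 none; 34754 matched RefSeq GRCm38.p6 by gene number). Knockout was compared with wild type by limma 3.58.1 in R 4.3.3 (lmFit, eBayes, two-sided), with Benjamini-Hochberg adjustment over 34958 probe sets and a threshold of 0.05; the script was tested on simulated data. Each array is a separate pool, so p-values measure the spread between pools. A gene is represented by its probe set with the highest 6-array mean. Alternatives were cyclic loess, other probe set filters, trend and array-weight fits, pool size as a covariate, since it differs between genotypes, and arrays left out. Pool size varied only among the knockouts, so that covariate leaves knockout 1 against the wild types and is not a correction for pool size. Gene lists carry no test. Promoters came from RefSeq.

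The members and lists were chosen with earlier results of these data known; the pancreatic acinar list was added after seeing the values. Named genes are all members, the targeted genes, all genes of the further M cell list, the 4 brightest genes of each other list, up to 4 more with an unadjusted p under 0.05, and the 3 nearest profiles to each member spanning 1 or more. Genes named outside this rule are marked as chosen after their values were seen.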

Additional observations from a re-analysis of the deposited data

How the results depend on the processing

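No alternative called a member probe set: the count stayed at 0 under cyclic loess, a filter on dim probe sets, all 45101 probe sets, 1 probe set per gene, array weights, robust estimation with an intensity trend, a covariate for pool size, each array left out, and 2 pairs of arrays left out. Over all probe sets the count was 1 with the pool size as covariate (Spty2d1), 0 to 3 with 1 array left out (3 without wild type 6, for Lrg1, Rgcc and Pla2g2a) and 2 without knockout 2 and wild type 6 (Lrg1 and Wfdc17), a setting chosen after seeing the data. Wild type 6 was the highest array in 3 member probe sets under cyclic loess too. With 1 array left out, Spib differed by -1.94 to -0.81, the brightest Tnfaip2 probe set by -1.42 to -0.69, Gp2 by -1.05 to -0.10, Ccl20 by -0.15 to 0.67 and the brightest Ccl9 probe set by -0.59 to 0.43. The median of the 8 members was -0.14, and 0.08 without knockout 2. Of 214 alternative member differences 206 moved by less than the replicate spread. This count is no measure of stability, because settings that change only the filter or the variance leave a difference unchanged. A move within the spread can also turn the sign, as for the brightest Ccl9 probe set from -0.22 to 0.51 with the pool-size covariate. Cyclic loess moved the median of all probe sets from 0.01 to 0.00. No paired analysis was possible because the arrays of the 2 genotypes share no replicate number. Pool size as a covariate moved Spib to -0.43 and the Tnfrsf11a probe sets to 0.98 and -0.86. These values set knockout 1 alone against the wild types and do not correct for pool size. Signal over background is unknown, which limits dim probe sets such as those of Umod, Ccr1, Tnfsf11 and Gp2.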
